A study of Mus musculus with 31 samples.

Results

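The genes described are 7 claudins (Cldn1, Cldn2, Cldn3, Cldn4, Cldn7, Cldn15 and Cldn23), occludin (Ocln), the scaffold gene Tjp1 and the E-cadherin gene Cdh1. They were measured in the distal colon of mice of a chemically induced colorectal cancer (CRC) model that did or did not ingest the food additive E171. CRC here names the model, and the study places these early responses before tumours form. The genes were chosen by name as barrier genes, through the gene name that the array gives its probes. 13 of the 56605 probes other than controls carried one of these names, with 2 probes each for Cldn2, Cldn7 and Tjp1 and 1 for each other gene. In the mm9 build of the array design the probes lie, for example, at chr16:26356740-26356799 in Cldn1, chr5:135463284-135463342 in Cldn3, chr5:135422135-135422194 in Cldn4, chr5:137451465-137451524 in Cldn15, chr8:36888151-36888210 in Cldn23, chr13:101268114-101268173 in Ocln and chr8:109193812-109193871 in Cdh1. All 10 genes passed the filter on low signal and were among the 19845 genes tested.

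Epithelial cells of the colon are joined at their upper edge by tight junctions, in which claudins form the strands that close or open the gap between neighbouring cells. Sealing claudins such as claudin-1, claudin-3, claudin-4 and claudin-7 narrow that passage, whereas claudin-2 and claudin-15 form channels for small cations and water. Occludin is a further membrane protein of the strand, Tjp1 (ZO-1) ties the strand to the actin cytoskeleton, and E-cadherin holds the cells together at the adherens junction beneath it. In the inflamed colon these proteins are known to change in amount and place, which is why they are read as barrier genes.

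All 31 BALB/c mice had received azoxymethane (AOM), a carcinogen given once by intraperitoneal injection before the start, and dextran sulfate sodium (DSS), an irritant of the colon given in the drinking water during the first days, so no group was free of either agent. The mice were 4 to 6 weeks old when they were placed into groups. The CRC mice received water by gavage, and the CRC + E171 mice received 5 mg per kg of body weight per day of E171, food-grade titanium dioxide, on 5 days a week. The groups follow the sample titles and source names, because the protocol field of the labels names a vehicle gavage for all 31 mice. Colons were taken after 2, 7, 14 and 21 days, with 2 males and 2 females in each of the 8 groups except the CRC group of 21 days, which had 1 male and 2 females. At 2 days the mice were still drinking DSS, and at 7 days it had ended. Each mouse gave 1 array, so the tests measure the spread between mice.

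Each array had 67.4% to 78.9% of its spots well above background. Every value below is relative to the 75th percentile of its array, a signal of 1717 to 6536. All 13 probes of the 10 genes were well above background on all 31 arrays and none was saturated. The 13 pan-epithelial marker genes (among them Epcam, Vil1 and Krt8) were likewise above background on every array, but their median was far lower on 2 arrays, those of the CRC males of 7 days, at -3.80 and -1.41 against -0.53 to 0.66 on the other 29 arrays (log2, each gene centred over all arrays). The squamous epithelium list was high on 5 arrays (1.95 to 7.38, against 0.42 or less on the others). The posterior Hox list was low on 3 CRC + E171 arrays (-5.43, -3.96 and -3.38). The array labelled male 2 of the CRC mice of 14 days had Xist, the X-linked transcript of females, at -1.6, among the females (-2.34 to -0.70) and not the other males (-6.53 or lower), so that its label of sex goes against the data. No slide held both treatments of the same day, and CRC and CRC + E171 arrays always lay in different columns of the slide, so treatment and slide column cannot be told apart. Arrays labelled male and arrays labelled female likewise always lay in different rows of the slide, so sex and slide row cannot be told apart.

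After 7 days without E171 Cldn1 was up-regulated and Cldn3 and Cldn7 were down-regulated, calls that did not stand without both CRC males of that day. Cldn4 was called changed neither between the treatments nor over the days without E171. The promoters of these 4 claudins are shown because their transcripts were called in these different ways. Each is the 250 bases before the RefSeq start site (GRCm38.p6), 5′ to 3′ on the strand of the gene, with matches to GGGCGG (the GC box of Sp factors) and CAGGTG (an E-box bound by the Snail repressors) on either strand in capitals. They lie at chr16:26371840-26372089 on the minus strand (Cldn1), chr5:134985964-134986213 on the plus strand (Cldn3), chr5:134946935-134947184 on the minus strand (Cldn4) and chr11:69964529-69964778 on the plus strand (Cldn7).
Cldn1: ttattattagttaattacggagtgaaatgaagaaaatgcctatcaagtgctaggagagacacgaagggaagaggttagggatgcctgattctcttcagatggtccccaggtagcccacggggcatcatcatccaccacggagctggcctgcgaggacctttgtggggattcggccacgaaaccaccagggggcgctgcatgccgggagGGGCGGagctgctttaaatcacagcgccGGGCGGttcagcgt
Cldn3: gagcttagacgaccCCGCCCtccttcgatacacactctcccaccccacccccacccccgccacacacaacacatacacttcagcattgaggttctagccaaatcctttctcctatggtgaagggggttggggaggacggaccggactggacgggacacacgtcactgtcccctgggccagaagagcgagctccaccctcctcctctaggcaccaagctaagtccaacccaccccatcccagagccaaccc
Cldn4: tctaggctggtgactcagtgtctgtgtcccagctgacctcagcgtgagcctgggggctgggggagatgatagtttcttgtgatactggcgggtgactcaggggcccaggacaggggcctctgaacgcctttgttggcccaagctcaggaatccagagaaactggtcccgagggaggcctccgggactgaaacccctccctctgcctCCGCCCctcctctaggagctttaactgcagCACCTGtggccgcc
Cldn7: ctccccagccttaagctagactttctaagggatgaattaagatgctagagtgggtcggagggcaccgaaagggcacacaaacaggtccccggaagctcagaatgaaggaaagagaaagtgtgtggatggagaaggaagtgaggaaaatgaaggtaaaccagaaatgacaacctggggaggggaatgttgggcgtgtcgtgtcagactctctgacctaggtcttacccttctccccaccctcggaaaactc

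Of the 8 genes with a promoter entry (all but Cldn23 and Cdh1), 6 held GGGCGG, which 33.2% of 26730 mouse promoters of this length hold. CAGGTG was found in Cldn4 alone, with its first base 14 bases before the start (17.2% of promoters hold it). TTTATG, a motif of the intestinal factors Cdx1 and Cdx2, was found in Cldn2 alone (11.1% of promoters). The GATA factor motif, spelled AGATAA, was found in none of the 8 (10.2% of promoters). No motif overlapped another in the printed sequences, and a match is a run of letters only.

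**Figure D1:**
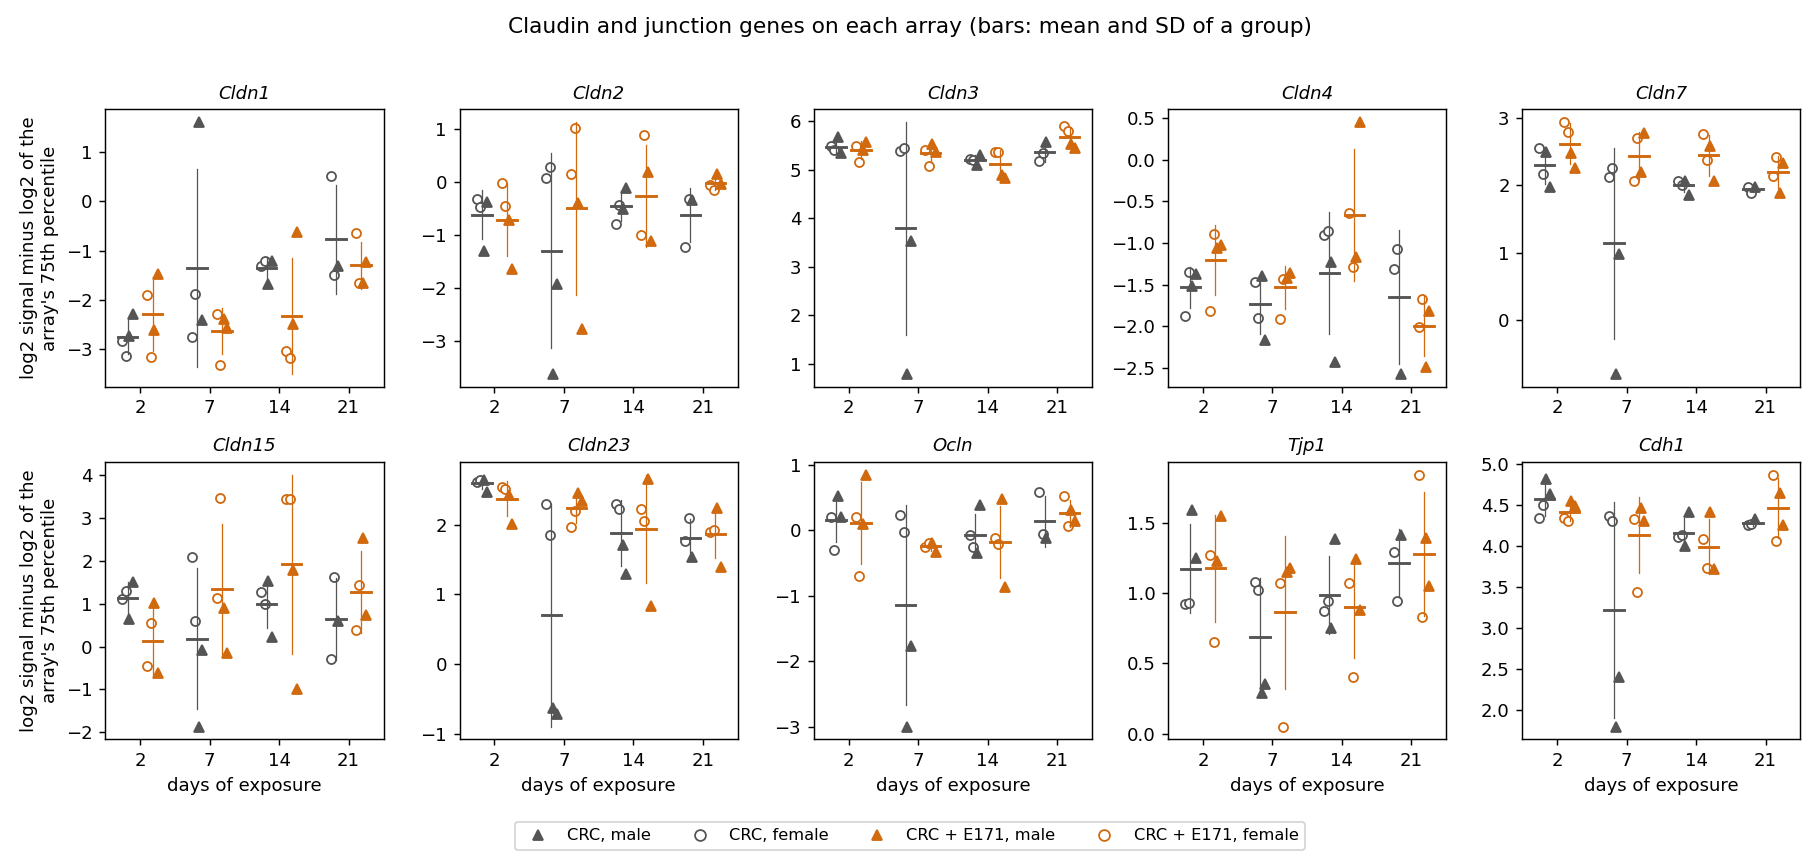
Level of each of the 10 genes on every array (log2 signal relative to the 75th percentile of the array), by day, for CRC and CRC + E171 mice, with triangles for males, circles for females and bars for the mean and SD of each group. The CRC males of 7 days stand far below the other arrays for Cldn3 (0.79 and 3.54), Cldn7, Cldn23, Ocln and Cdh1.

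The sealing claudins Cldn3, Cldn7 and Cldn23 and the adherens junction gene Cdh1 were up-regulated in CRC + E171 mice relative to CRC mice after 7 days of exposure, by 2.93-, 2.45-, 2.91- and 1.88-fold. In the CRC + E171 mice none of these 4 genes was called changed between 2 and 7 days, and in the CRC mice of 7 days the low levels were those of the 2 males. A gene is called differentially expressed (a DEG) here when its fold change was at least 1.5 and its unadjusted limma p was under 0.05. At 7 days 12.4% of all 19845 genes tested were DEG, against 4 of these 10, and no gene of the 19845 had an adjusted p under 0.05. In whole colon tissue, a smaller share of colonic epithelial cells and less RNA per epithelial cell cannot be told apart.

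Cldn3, a main sealing claudin of the colon surface, stood in the CRC mice of 7 days at 0.79 and 3.54 in the males and at 5.39 and 5.46 in the females (log2 level relative to the 75th percentile). In the CRC + E171 mice of 7 days it stood at 5.54 and 5.36 in the males and 5.41 and 5.08 in the females. Both CRC males lay below all other mice, while the CRC females lay among the CRC + E171 mice. The log2 difference between treatments was 1.55 (SE 0.55, limma adjusted p = 0.207), being 3.28 between the males and -0.18 between the females. The groups overlapped, and the exact permutation test over the 8 mice gave p = 0.286 (two-sided).

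Cldn7, a claudin that also lies along the lateral membrane, stood at -0.80, 0.98, 2.13 and 2.26 in the CRC mice (males, then females) and at 2.20, 2.78, 2.07 and 2.70 in the CRC + E171 mice. Again the males carried the gap, with a difference of 2.40 between the males and 0.19 between the females. The log2 difference was 1.30 (SE 0.39, limma adjusted p = 0.196, exact permutation p = 0.143). Its 2 probes gave 1.09 and 1.5.

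For Cldn23, a claudin of the differentiated surface epithelium, the CRC mice of 7 days stood at -0.63, -0.72, 2.30 and 1.86 and the CRC + E171 mice at 2.46, 2.34, 1.97 and 2.20. The CRC males were the 2 lowest of all 31 arrays, and the means of the females of both treatments differed by 0.00. The log2 difference was 1.54 (SE 0.47, limma adjusted p = 0.196, exact permutation p = 0.0857), all of it between the males (3.08).

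Cdh1, which encodes E-cadherin, stood at 1.80, 2.41, 4.37 and 4.31 in the CRC mice and at 4.46, 4.31, 4.33 and 3.44 in the CRC + E171 mice. One CRC + E171 female, at 3.44, lay below both CRC females. The log2 difference was 0.91 (SE 0.38, limma adjusted p = 0.239), with 2.28 between the males and -0.46 between the females.

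The other 6 genes were not DEG at 7 days. Occludin had the same 2 low CRC males, at -3.0 and -1.76 against 0.23 and -0.03 in the CRC females and -0.33 to -0.19 in the CRC + E171 mice. Its log2 difference was 0.89 (SE 0.45, limma adjusted p = 0.319). For the scaffold gene Tjp1 the CRC males (0.29 and 0.35) were low but one CRC + E171 female was lower (0.05), and the difference was 0.18 (exact permutation p = 0.771). The channel-forming claudins spread widely in both groups, with Cldn2 from -3.62 to 0.28 in CRC and -2.78 to 1.02 in CRC + E171 mice, and Cldn15 from -1.87 to 2.10 and from -0.15 to 3.47. Their log2 differences were 0.79 (exact permutation p = 0.543) and 1.15 (p = 0.343). Cldn4 differed by 0.20 (exact permutation p = 0.343). Cldn1 differed the other way, by -1.28 (exact permutation p = 0.257), with 1 CRC male at 1.6, the highest Cldn1 level of all arrays.

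Without both CRC males of 7 days, an alternative chosen after seeing the data, the differences at 7 days were -0.08 for Cldn3, 0.24 for Cldn7, 0.16 for Cldn23, -0.21 for Cdh1 and -0.34 for Ocln, and 0 of the 10 genes were DEG. With the pan-epithelial marker median as a covariate they were -0.06, 0.20, 0.43, 0.02 and -0.23, again with 0 DEG. With array weights, or with only the 8 arrays of 7 days in the fit, 0 of the 10 were DEG as well. Within each array, Cldn3 minus the median of the centred pan-epithelial genes differed by 0.07 between treatments at 7 days (exact permutation p = 0.743). Cldn7 differed by -0.19 (p = 0.543, exact) and Cldn23 by 0.06 (p = 0.857, exact). The same measure differed by -0.57 for Cdh1 (p = 0.4, exact), -0.59 for Ocln (p = 0.0571, exact), -1.30 for Tjp1 (p = 0.171, exact), -2.77 for Cldn1 (p = 0.114, exact), -1.28 for Cldn4 (p = 0.286, exact), -0.69 for Cldn2 (p = 0.686, exact) and -0.33 for Cldn15 (p = 0.714, exact). Other lists moved on the same 2 arrays. Neutrophil markers were at 4.22 and 5.38. In male 1 squamous markers were at 7.38, the highest of all arrays, and skeletal muscle markers were at 7.47. In male 2 pancreatic acinar markers were at 7.91. Skeletal muscle markers were also at 2.48 in CRC female 2 of 7 days. Acinar markers were also at 4.69 to 9.76 on 4 arrays whose pan-epithelial median was 0.06 to 0.66. The part of these other tissues in the levels of the 10 genes was not tested.

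**Figure D2:**
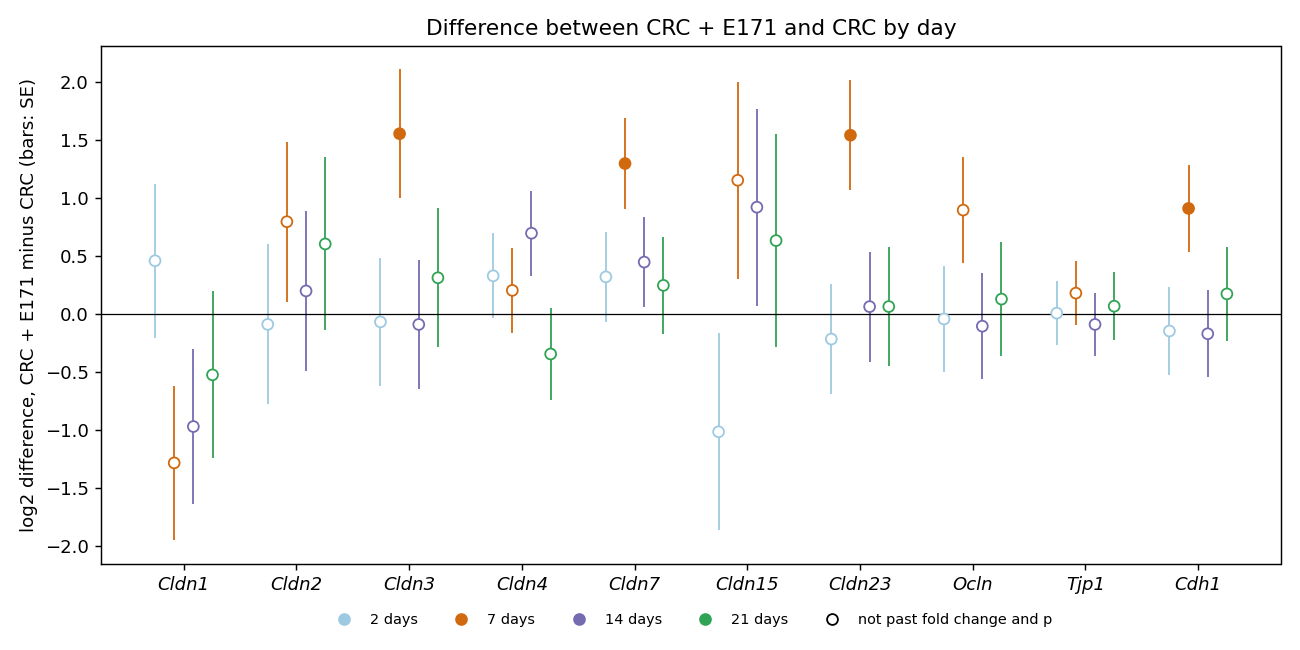
Log2 difference between CRC + E171 and CRC mice for each of the 10 genes at 2, 7, 14 and 21 days (dots, with the SE of the limma fit as bars), filled where the gene was a DEG and open where it was not. The only filled dots are those of Cldn3, Cldn7, Cldn23 and Cdh1 at 7 days, at 0.91 to 1.55.

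At 2, 14 and 21 days of exposure none of the 10 genes was a DEG between CRC + E171 and CRC mice, while 1.72%, 6.35% and 2.67% of all genes were (342, 1261 and 529 genes, and 2463 at 7 days). At an unadjusted p under 0.05 the counts over all genes were 541, 1584 and 1149, and 0 of the 10 genes were among them on each of these days. At 2 days the largest difference was that of Cldn15, with levels of 0.64 to 1.5 in CRC and -0.62 to 1.02 in CRC + E171 mice and a log2 difference of -1.02 (exact permutation p = 0.0571). Cldn7 differed by 0.32 at that day.

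At 14 days Cldn7 was higher in CRC + E171 mice by 0.45 without passing the test (exact permutation p = 0.0571). Relative to the pan-epithelial genes the difference was 0.35 (exact permutation p = 0.0286, the smallest that 4 against 4 mice allow). Both values average a bright Cldn7 probe, which differed by 0.13, and a far dimmer one, which differed by 0.76. Cldn4 was higher in CRC + E171 mice by 0.69 without passing the test (exact permutation p = 0.343), and by 0.34 without the CRC array at odds with its sex label. One CRC + E171 male was at 0.45, the highest Cldn4 level of all arrays, and the others were at -1.17, -0.64 and -1.29, against -2.43 to -0.86 in CRC mice. Cldn1 was at -1.68 to -1.21 in the 4 CRC mice and at -2.48, -3.03 and -3.17 in 3 of the CRC + E171 mice, with the fourth at -0.63. This difference of -0.97 gave an exact permutation p of 0.143. The CRC + E171 male at -0.63 was one of the 5 arrays high in squamous markers, at 2.29. Without those 5 arrays, a choice made after seeing the data, the difference was -1.54 (limma adjusted p = 0.083), a DEG. Without the 3 arrays low in posterior Hox genes, which include both CRC + E171 females of 14 days, it was -0.20 (limma adjusted p = 1.0).

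At 21 days the pore-forming claudin Cldn2 stood at -0.15 to 0.14 in the 4 CRC + E171 mice and at -0.35, -1.22 and -0.33 in the 3 CRC mice. The groups did not overlap, as for 8.02% of all genes, and the difference was 0.60 (limma adjusted p = 0.949). The exact permutation test gave p = 0.0286, the smallest p that 4 against 3 mice allow. Neither of the 2 Cldn2 probes separated the groups alone, the difference was 0.31 without the CRC female at -1.22, and relative to the pan-epithelial genes it was 0.30 (exact permutation p = 0.286). At 7 days none of the 10 genes separated the groups, against 4.86% of all genes.

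Averaged over the 4 days, none of the 10 genes was a DEG for E171, against 1.80% of all genes. Cldn7 had the lowest adjusted p of the 10, with a mean log2 difference of 0.58 (SE 0.20, limma adjusted p = 0.497), just below the fold threshold, as was Cldn1 at -0.58 (adjusted p = 0.549). Cldn7 was higher in CRC + E171 mice on each of the 4 days (0.32, 1.30, 0.45 and 0.25). Relative to the pan-epithelial genes its differences were 0.24, -0.19, 0.35 and -0.06, so the direction did not hold on each day. Within slides, which compare CRC + E171 with CRC arrays of other days, Cldn3 (0.95), Cldn7 (0.74) and Cldn23 (0.78) were DEG on the slides of 7 and 21 days, where 4.47% of all genes were, with an adjusted p of 0.509 or more. Without both CRC males of 7 days, or with the pan-epithelial covariate, 0 of the 10 were, so this comparison rests on the same mice. On the slides of 2 and 14 days none was, against 2.27% of all genes. The test of whether the E171 difference varied over the days had an unadjusted p under 0.05 for 6.53% of all genes and for none of the 10. The difference at 7 days exceeded that at 2 days by 1.62 for Cldn3 and by 1.76 for Cldn23, each with an unadjusted p under 0.05 (as for 6.94% of all genes) and a limma adjusted p of 0.644.

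Between the sexes, over all groups, the channel-forming claudins Cldn2 and Cldn15 were lower in males, by -0.81 and -0.90 on the log2 scale (limma adjusted p = 0.459 and 0.53). They were the 2 DEG of the 10 genes in this comparison, against 2.99% of all genes. Without both CRC males of 7 days none of the 10 was. Array weights, a pan-epithelial covariate or leaving out the arrays high in squamous markers ended both calls as well. Leaving out the arrays low in posterior Hox genes, all from females, ended the call of Cldn15. Sex and slide row cannot be told apart here, and the part of tissue make-up was not tested. Without the CRC mouse of 14 days whose Xist level went against its label, Cldn15 differed by -0.87 and was no DEG, and Cldn2 differed by -0.88 and was one.

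In mice without E171, 5 of the 10 genes were down-regulated and 1 was up-regulated after 7 days relative to 2 days, while 13.4% of all genes were DEG in either direction. These comparisons use the CRC mice of 7 days that also stand in the comparison with E171. In the same comparison all 13 pan-epithelial (median -1.51) and 7 of 9 goblet cell markers were down-regulated, and 8 of 10 skeletal muscle, 6 of 9 endothelial and 4 of 9 neutrophil markers were up-regulated. Down-regulated were Cldn3 (-1.68), Cldn7 (-1.16), Cldn23 (-1.89), Ocln (-1.30) and Cdh1 (-1.35), and up-regulated was Cldn1 (1.39), with adjusted p from 0.198 to 0.285 in limma. Cldn1 was high in 1 male, and without that male the difference was 0.40 and no call. Without both CRC males of 7 days 0 of the 10 genes were DEG. Of the 6, only Cldn23 had groups that did not overlap, as 4.74% of all genes did. The test over all 4 days had an unadjusted p under 0.05 for Cldn3, Cldn7, Cldn23, Ocln and Cdh1, 5 of the 10 genes against 9.88% of all genes, with adjusted p of 0.492 or more.

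Cldn1, a sealing claudin that is abundant in stratified epithelia, was up-regulated at 14 and 21 days relative to 2 days in the CRC mice, while its test over all 4 days did not pass (limma adjusted p = 0.5). At 2 days it stood at -2.73, -2.28, -2.83 and -3.13 (mean -2.74 ± 0.35 SD, n = 4). At 14 days it stood at -1.68, -1.21, -1.32 and -1.22 (mean -1.36 ± 0.22 SD, n = 4), and at 21 days at -1.32, 0.50 and -1.5. All mice of 14 and 21 days lay above all mice of 2 days. The log2 differences from 2 days were 1.38 at 14 days (SE 0.67, limma adjusted p = 1.0) and 1.97 at 21 days (SE 0.72, limma adjusted p = 0.899). Among all genes, 2.54% and 3.60% were DEG in these comparisons, and the groups did not overlap for 9.13% and 10.8%. The exact permutation test gave p = 0.0286 for each, the smallest that these group sizes allow.

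Cldn1 was no longer a DEG at 14 days when any 1 of 7 of the 8 arrays compared was left out, the array at odds with its sex label included (log2 differences of 1.25 to 1.54). At 21 days the call ended without the CRC female at 0.50, where the difference was 1.33. That female had a squamous list median of 5.99. With array weights the limma adjusted p was 0.0271 at 14 days (log2 difference 1.23) and 0.0462 at 21 days (1.67). With quantile normalization (1.34) or the authors' values (1.33) Cldn1 was no DEG at 14 days. In the CRC + E171 mice Cldn1 stood at -2.28 ± 0.74, -2.64 ± 0.46, -2.33 ± 1.17 and -1.30 ± 0.47 after 2, 7, 14 and 21 days (SD, n = 4 each) and was a DEG at none of the later days against 2 days. The test of whether the E171 difference in Cldn1 varied over the days gave a limma adjusted p of 0.757.

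Cldn23 ran in the opposite direction in the CRC mice. Its levels were 2.64, 2.47, 2.62 and 2.64 at 2 days, 1.71, 1.30, 2.30 and 2.22 at 14 days, and 1.54, 1.77 and 2.10 at 21 days. Every mouse of 14 and 21 days lay below every mouse of 2 days, with log2 differences of -0.71 and -0.79 (exact permutation p = 0.0286 each), a separation that 9.13% and 10.8% of all genes share. At 2, 14 and 21 days the surface colonocyte list had group medians of 0.43, -0.05 and 0.21. The fibroblast list was at -0.28, 0.24 and 0.09, and the goblet cell list was at 0.20, 0.47 and 0.49. Their part in the level of Cldn23 was not tested. Cldn23 was not a DEG at either day over all arrays. It was a DEG at both days without both CRC males of 7 days, who are in neither group but widen the pooled spread (limma adjusted p = 0.712 and 0.571). Cldn3 also separated 14 from 2 days, by only -0.27, and Cdh1 separated 21 from 2 days, by -0.28. In the CRC + E171 mice the mean of Cldn23 fell as well, at 2.37, 2.24, 1.94 and 1.87 after 2, 7, 14 and 21 days. Its differences from 2 days there were -0.43 at 14 and -0.51 at 21 days (exact permutation p = 0.371 and 0.0571), without a DEG call.

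In the CRC + E171 mice, no gene of the 10 was a DEG at 7 against 2 days, where 3.30% of all genes were. Cldn15 was up-regulated at 14 against 2 days (1.80, SE 0.85, limma adjusted p = 0.391), the 1 DEG of the 10 genes against 9.69% of all genes. Its levels were 1.02, -0.62, -0.45 and 0.55 at 2 days and 1.78, -0.98, 3.45 and 3.45 at 14 days, so that both females of 14 days stood apart and a male was below all mice of 2 days. Without the 3 arrays low in posterior Hox genes the difference was 0.27 (limma adjusted p = 0.973). Quantile normalization or scan day as a block also ended the call.

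Cldn4, a sealing claudin, was down-regulated at 21 against 2 days in the CRC + E171 mice (-0.80, SE 0.37, limma adjusted p = 0.349, exact permutation p = 0.0857), the 1 DEG of the 10 genes against 7.42% of all genes. Its levels were -1.06, -1.03, -1.82 and -0.89 at 2 days and -2.49, -1.81, -2.01 and -1.67 at 21 days, with 1 female of 2 days inside the range of 21 days. Leaving out any 1 of 5 of the 8 arrays, quantile normalization or scan day as a block ended the call. In the same comparison 0 of 9 neutrophil markers were higher at 21 days (median -0.44). From 2 to 21 days the group median of the T cell list went from 0.31 to -1.10 and that of the B cell list from 0.32 to -1.15. The adipocyte list went the other way, from -0.35 to -0.15. The part of these lists in the level of Cldn4 was not tested. Over all 4 days Cldn4 was the only gene of the 10 with an unadjusted p under 0.05 (limma adjusted p = 0.214) in CRC + E171 mice, against 14.6% of all genes, and its mean fell in the order 14, 2, 7 and 21 days (-0.66, -1.20, -1.53 and -2.0).

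Across all 8 groups the 10 genes differed in how far they spread. The range over 31 arrays was widest for Cldn15 (5.34 on the log2 scale) and Cldn3 (5.12) and narrowest for Tjp1 (1.79). The range of Cldn3 rests on the CRC males of 7 days (0.79 and 3.54), since all other arrays lay at 4.84 to 5.91. The CRC group of 7 days had the lowest mean of the 8 groups for Cldn2, Cldn3, Cldn7, Cldn23, Ocln, Tjp1 and Cdh1. When the groups were put in order of their means, neighbours in that order lay closer together than the larger of their SDs in all but 2 of 70 cases. The 2 exceptions were Cldn1 between CRC of 14 days and CRC + E171 of 2 days (a gap of 0.92 against an SD of 0.74) and Cdh1 between CRC + E171 of 2 days and CRC of 21 days (0.13 against 0.12). Outside 7 days the SD of a group lay at 0.09 to 0.29 for Cldn3 and at 0.37 to 2.09 for Cldn15.

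**Figure D3:**
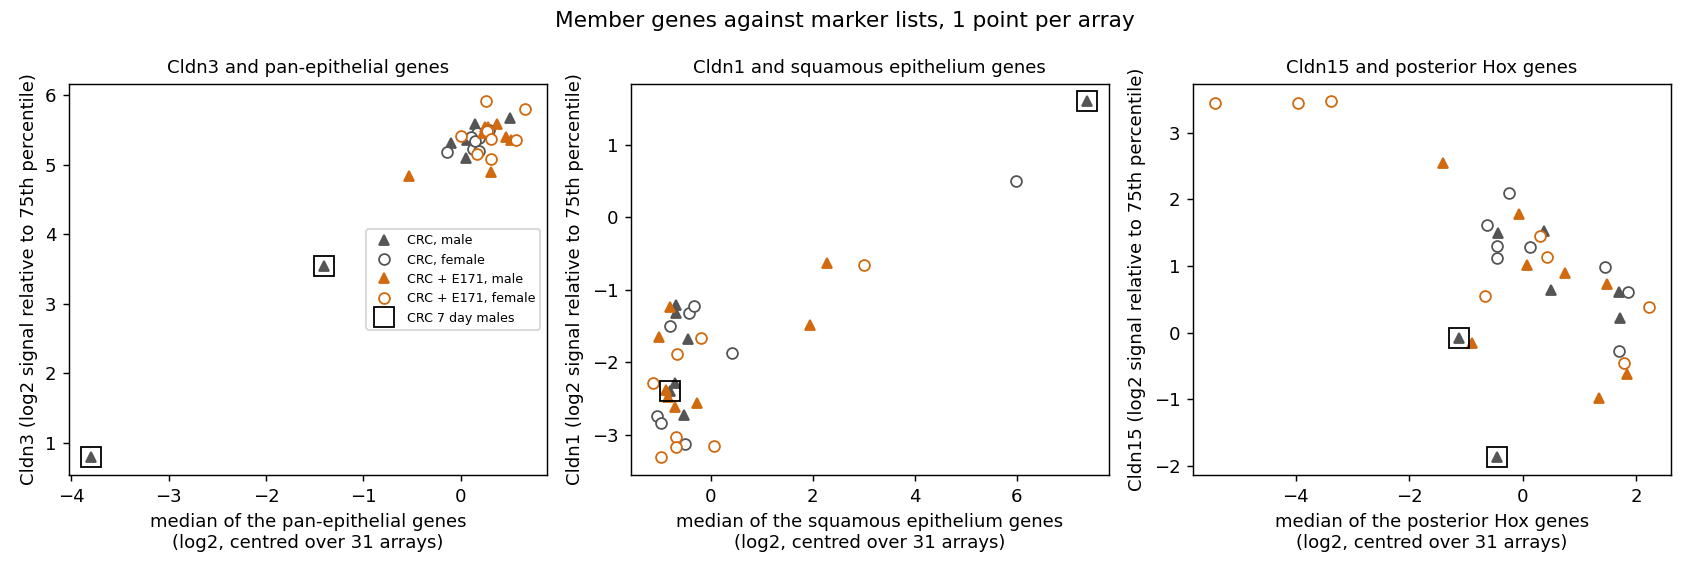
Level of Cldn3, Cldn1 and Cldn15 (log2 signal relative to the 75th percentile) against the median of the pan-epithelial, squamous epithelium and posterior Hox genes, 1 point per array, with squares around the CRC males of 7 days. Cldn3 is lowest at -3.80 and -1.41 on the pan-epithelial axis, Cldn1 is highest at 7.38 and 5.99 on the squamous axis, and the 3 arrays furthest left for posterior Hox genes have the 3 highest Cldn15 levels (3.45, 3.45 and 3.47).

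Across the 31 arrays, Cldn3, Cldn7, Ocln, Cdh1 and Cldn23 followed the pan-epithelial list, with Pearson r of 0.97, 0.93, 0.86, 0.84 and 0.83. Without the CRC males of 7 days (29 arrays) the values were 0.53, 0.58, 0.29, 0.19 and 0.57. Arrays share tissue make-up and group, so these are descriptions. Cldn4 did not follow that list (0.00), and Cldn1 ran against it (-0.61, and -0.50 without those males). Between the genes themselves, Tjp1 and Cdh1 correlated at 0.78 over all arrays and 0.85 without the males, Ocln and Tjp1 at 0.69 and 0.65, and the channel-forming Cldn2 and Cldn15 at 0.67 and 0.55. Cldn3 and Cldn7 went from 0.86 to -0.01 and Cldn3 and Cldn4 from -0.08 to -0.60. Cldn1 and Cldn23 stood at -0.58 and -0.65.

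Cldn1 followed the squamous epithelium list with an r of 0.81 over 31 arrays, and 0.69 without the CRC males of 7 days. On the 5 arrays high in that list, at 7.38, 5.99, 3.0, 2.29 and 1.95, Cldn1 stood at 1.6, 0.50, -0.65, -0.63 and -1.48. The Cldn1 levels of the CRC mice of 14 days (-1.68 to -1.21) stood on arrays with a squamous list median of -0.68 to -0.33, a range that overlaps that of 2 days (-0.97 to -0.51). Of the 15 squamous genes tested, 11 were higher at 14 days and none was a DEG (median 0.32). In the CRC mice of 21 days the 2 with a low list (down to -0.80) had Cldn1 at -1.32 and -1.5. Without the 5 arrays, the differences from 2 days were as before at 14 days (limma adjusted p = 0.14) and 1.33 at 21 days. Fibroblast markers were also higher at 14 days, with 3 of 8 up-regulated (Lum by 1.20, Col3a1 and Dcn) and a list median of 0.52, against 1.42% of all genes up-regulated. Smooth muscle (median 0.51) and endothelial markers (median 0.49) were each higher in 9 of 9 without passing the test, and of 7 posterior Hox genes 1 was up-regulated (Hoxd11 by 2.54, list median 1.01). At 21 days the CRC group medians were 0.67 for smooth muscle, 0.28 for enteric neurons and glia and 1.70 for posterior Hox genes. At 2 days they were -0.31, -0.24 and -0.45. Cldn1 correlated with the posterior Hox list at 0.51, and at 0.67 without the CRC males of 7 days. Their part in the level of Cldn1 was not tested.

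Cldn15 ran against the posterior Hox genes, which mark the hind end of the gut, with an r of -0.69, and -0.83 without the CRC males of 7 days. The 3 arrays with the lowest Hox medians, both CRC + E171 females of 14 days and female 2 of the CRC + E171 mice of 7 days, had the 3 highest Cldn15 levels. The next lowest Hox median, -1.40 in a CRC + E171 male of 21 days, went with the next highest Cldn15 level, 2.54. Whether these pieces of colon lay further forward was not tested. Cldn4 followed the neutrophil list at 0.24 over all arrays and at 0.72 without the CRC males of 7 days.

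For each of the 10 genes, the 3 other genes with the highest Pearson r over the 31 arrays were taken as the most alike. For Cldn3 they were Tinag, Prr15l and Myo1a, each at 0.968, and for Cldn7 Igsf5 (0.955), Misp (0.944) and Krt8 (0.920). For Cldn23 they were St14 (0.938), Prss30 (0.934) and Sectm1b (0.933), and for Cdh1 Arhgap18 (0.965), Rhbdl2 (0.953) and F2rl1 (0.944). Ocln was closest to Lima1 (0.944), Ceacam18 (0.937) and Sema4g (0.933), and Tjp1 to Smad4 (0.898), Bfsp1 (0.883) and Snx9 (0.870). For Cldn15 they were the transporters Slc3a1 (0.912) and Slc13a1 (0.893) with B4galnt2 (0.900), and for Cldn2 Kcnq1 (0.875), Cbs (0.872) and Nanp (0.858). Cldn1 ran with Prkab2 (0.898), the desmosomal gene Ppl (0.890) and Cavin4 (0.869). Cldn4 had the weakest neighbours, Cdc25b (0.730), Ttll12 (0.711) and Cfl1 (0.710).

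**Figure D4:**
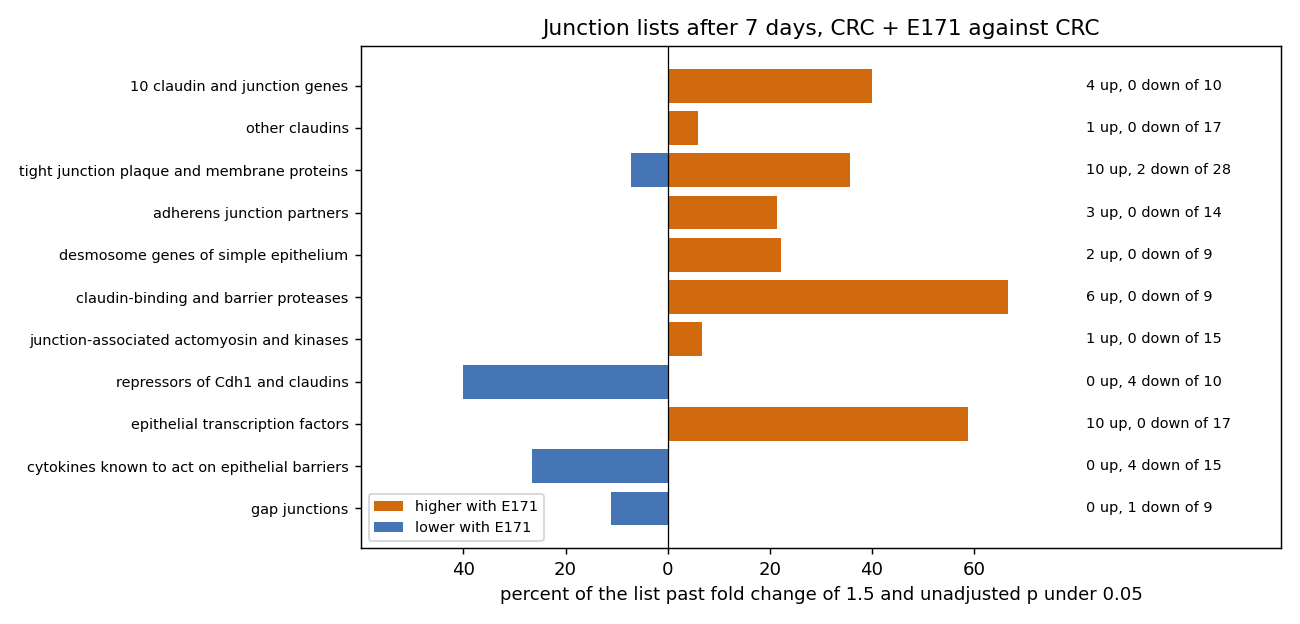
Percent of the tested genes of the 10 genes and of each junction list that were DEG between CRC + E171 and CRC mice after 7 days, with bars to the right for genes higher and to the left for genes lower with E171, and the counts beside them. Among these lists the longest bars to the right are those of the proteases and partners (6 of 9) and the epithelial transcription factors (10 of 17), and the longest to the left is that of the repressors (4 of 10).

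At 7 days the median log2 difference of the 10 genes between CRC + E171 and CRC mice was 0.90, against -0.01 over all genes. Of all genes 6.93% were up-regulated and 5.48% down-regulated at that day. Of the other genes of the junction, 10 of 28 tested genes for plaque and membrane proteins of the tight junction were up-regulated and 2 were down-regulated (median 0.23), led by Ildr1 (1.90), Prkcz (1.28), Marveld2 (1.28), which encodes the tricellular junction protein tricellulin, Cxadr (1.10) and Cgn (1.10). The medians of the other claudins, the adherens partners and the desmosome genes were -0.02, 0.44 and 0.18. Of the 17 other claudins tested 1 was up-regulated, Cldn8 (2.16, limma adjusted p = 0.249), a sealing claudin of the distal colon. Among 14 adherens junction partners 3 were, Cdh17 (2.12), Nectin3 (0.81) and Ctnnd1 (0.76), and among 9 desmosome genes 2 were, Dsg2 (1.36) and Pkp2 (0.95). Cdh17 is also one of the pan-epithelial genes.

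Of 9 proteases and partners that act on claudins or the barrier, 6 were up-regulated at 7 days, among them Mep1a and Mep1b (1.32), which encode brush border proteases (Mep1a was not well above background in CRC male 1, so its size is not given), F2rl1 (1.41), a protease receptor, Spint2 (1.16), a protease inhibitor, and St14 (1.10), a membrane protease (list median 1.10). The sixth is Epcam, which is also a pan-epithelial gene. Of 17 epithelial transcription factors 10 were, led by the intestinal factors Cdx2 (2.72), Hnf4a (2.43), Cdx1 (1.53), Elf3 (1.39) and Hnf4g (1.32), with a list median of 0.87. Cdx1, Cdx2 and Elf3 are also among the pan-epithelial genes. Of 10 repressors of Cdh1 and claudins 4 were down-regulated, Twist2 (-1.82), Snai1 (-1.18), Snai2 (-1.04) and Snai3, which was well above background on only 12 of 31 arrays. Of 15 cytokines known to act on barriers 4 were down-regulated, Osm (-2.40) and also Il6, Il17a and Il17f, which were well above background on only 14, 17 and 18 of 31 arrays, so that no size is given. Of 15 actomyosin and kinase genes 1 was up-regulated, Myh14 (1.35), a share near that of all genes, as was that of the other claudins. All of these values rest on the same CRC mice of 7 days. In the same comparison all 13 pan-epithelial markers (median 1.49) and 7 of 9 goblet cell markers (median 3.03) were up-regulated, and 8 of 10 skeletal muscle markers were down-regulated (median -2.51).

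At 14 days, 4 of the 17 other claudins were down-regulated in CRC + E171 mice and none was up-regulated (median -0.38), against 3.11% of all genes down-regulated. They were Cldn8 (-2.46, limma adjusted p = 0.532), Cldn11, Cldn34a and Cldn34b1, the last 3 with no size given since they were well above background on 29, 18 and 19 of 31 arrays. Of the other junction lists, Ovol1 (0.99) among the transcription factors and Il13 (1.25) among the cytokines were up-regulated. The posterior Hox genes Hoxa13 (-2.71), Hoxb13, Hoxd13 and Hoxd12 were down-regulated at the same day, the last 3 with no size given since they were well above background on 29, 29 and 28 of 31 arrays, and the part of this in the fall of Cldn8 was not tested. At 2 and 21 days 0 genes of the junction lists were DEG.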

How the data were processed

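RNA of 31 mouse colons was hybridised to one-colour Agilent arrays, 1 per mouse. Per the file headers, the authors deposited scanner intensity values from Feature Extraction 10.7.3.1, of which the background-subtracted processed signal was used. The deposited value matrix holds normalized log2 values of 42568 probes and served as an alternative only. Probe positions are those of the array design (mm9).

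Control spots were left out, each array's processed signal was divided by its 75th percentile and log2 was taken, and spots of a probe and probes of a gene were averaged. A probe was kept when 60% of the arrays of at least 1 group gave a value well above background and its mean log2 signal was 4 or more (42787 probes kept, 34410 of them matched to a gene, 19845 genes). Genes were named through RefSeq accessions and symbols. limma 3.58.1 (R 4.3.3, statmod 1.5.0) fitted 1 mean per group over all 31 arrays with p-values adjusted by Benjamini-Hochberg over all 19845 genes. Counts, exact two-sided permutation tests and figures were made in Python 3.11.15 (numpy 2.4.6, pandas 2.3.3). The fit was tested on simulated data. The precision is limited by the number of arrays.

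The 10 genes, the gene lists and the alternatives were chosen with earlier results of these data known. By the rule for named genes, the DEG of each junction list were to be named, at most 5 per comparison by size of the log2 difference. The text does so for E171 against CRC on each day, not for the comparisons between days, and names for each of the 10 genes the 3 genes with the highest Pearson correlation. Some genes of the junction lists are not reported here. Alternatives were other background corrections, normalizations, filters, probe summaries and thresholds, the authors' values, sex, scan day, replicate number or the pan-epithelial median as a covariate or block, array weights, only the arrays compared, and leaving out each array. Leaving out both CRC males of 7 days, the arrays with a squamous list median above 1 and the arrays with a posterior Hox median below -3 was added after the data were seen.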

Additional observations from a re-analysis of the deposited data

Results flagged for a closer look

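Of 70 groups of 4 mice examined for 1 value far from the other 3 by Dixon's test (critical ratio 0.829), 5 had one, and chance alone gives about 5% of groups. Cldn2 was low in male 1 of the CRC mice of 2 days, at -1.30 against -0.47 to -0.32 (ratio 0.845). Cldn23 was low in male 2 of the same group, at 2.47 against 2.62 to 2.64 (ratio 0.912), a gap of little size. In the CRC + E171 mice of 7 days, Cldn4 was low in female 1, at -1.91 against -1.43 to -1.36 (ratio 0.871). Female 2 of that group was low in Tjp1, at 0.05 against 1.07 to 1.18 (ratio 0.905), and in Cdh1, at 3.44 against 4.31 to 4.46 (ratio 0.85). That female is also the one with a posterior Hox median of -3.38 and Cldn15 at 3.47.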

How the results depend on the processing

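Counts of the 10 genes called DEG are given as reported, then under each alternative that moved them. At 2 days 0 became 1 with only the arrays compared. At 7 days 4 became 0 with only the arrays compared, with the pan-epithelial covariate, with array weights and without both CRC males of 7 days, and 2 at a log2 difference of 1.5 or more and without the arrays high in squamous markers, and lay at 2 to 6 with 1 array left out (adjusted, 0 to 4). At 14 days 0 became 1 with scan day as a block, with array weights and without the arrays low in posterior Hox genes, 2 without the arrays high in squamous markers, and 0 to 2 with 1 array left out. The mean over days went from 0 to 1 with the sex covariate and with the replicate block, and 0 to 2 with 1 array left out. Over the days without E171, 5 became 1 (pan-epithelial covariate, without both males), 2 (array weights, without the squamous arrays) and 2 to 6 (1 array left out), and 0 adjusted became 1 with array weights. With E171, 1 became 3 (pan-epithelial covariate, array weights), 2 (without both males or the squamous arrays) and 1 to 2. The test of days against treatment went from 0 to 1 with quantile normalization, sex, the replicate block or without the squamous arrays, and to 0 to 4. Sex went from 2 to 0 with the pan-epithelial covariate, array weights or without both males or the squamous arrays, and to 1 to 3. Within slides of 7 and 21 days 3 became 1 with the authors' values and without the Hox arrays, 0 with the pan-epithelial covariate, array weights and without both males or the squamous arrays, and 0 to 6; of 2 and 14 days, 0 became 1 without the squamous or the Hox arrays, and 0 to 1. CRC at 7 against 2 days went from 6 to 1 (pan-epithelial covariate, array weights), 0 (without both males), 3 (without the squamous arrays) and 3 to 7 (adjusted, 0 to 5); at 14 from 1 to 0 (quantile, authors' values), 2 (array weights, without both males) and 0 to 1, adjusted 0 to 1 with array weights; at 21 from 1 to 2 (replicate block, array weights, without both males) and 0 to 1, adjusted 1 with array weights. CRC + E171 at 14 against 2 days went from 1 to 0 (quantile, scan day, without the Hox arrays), and at 21 days from 1 to 0 (quantile, scan day), 2 (pan-epithelial covariate) and 3 (array weights), each 0 to 1 with 1 array left out. The cause was not tested.

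Values called in the reported setting that turned sign were Cldn3 at 7 days (-0.058 with the pan-epithelial covariate, -0.078 without both males), Cdh1 at 7 days (-0.21 without both males), Cldn1 in CRC at 7 against 2 days (-0.12 with that covariate) and Cldn3 within the slides of 7 and 21 days (-0.051 with that covariate). Of 2540 single values tried, 130 lost the call, 27 gained it and 5 called values turned sign. The other 2378 stayed on their side of the threshold, but 136 values called in neither setting changed sign, Ocln at 7 days among them. The labels do not say that a replicate number pairs mice. Of 105 pairs with the same number, 42 correlated above 0.1 in their deviations (median 0.0578), and 17 of 31 arrays were closest to their own number, a hint from the data and not from the design. The replicate block moved no count other than those named. The counts without both males, without the squamous arrays and without the Hox arrays were chosen after seeing the data. All 13 probes were above background on every array. The dimmer probes of Cldn2 and Cldn7 fell to signals of 111 and 118 in CRC male 1 of 7 days. Whether low signal limits those values was not tested.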

Other observations

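Without the CRC males of 7 days (29 arrays), the gene closest to Cldn3 was Chmp5 (r = 0.855), to Cldn7 Pycard (0.806), to Cldn23 Lrrc66 (0.891), to Ocln Atxn1 (0.838) and to Cldn4 Nsun2 (0.815). The first gene stayed the same for Cldn1 (Prkab2, 0.889), Tjp1 (Smad4, 0.886) and Cdh1 (Arhgap18, 0.883). For Cldn15 it was Slc13a1 (0.891).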
